A study of Mus musculus with 64 samples.

Results

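CD103+ CD4 T cells of the inflamed colon were followed here through their surface proteins, in a time course of T cell transfer colitis. The cells were chosen by antibody counts alone: they carried CD3, CD4 and CD103 above a threshold and had CD11b and CD64 at or below one. In all, 10273 of 130442 cells met the rule, out of 57817 CD4 T cells, meaning cells with CD3 and CD4 and without CD11b and CD64. The 47544 CD4 T cells at or below the CD103 threshold are called CD103- CD4 T cells and served as the comparison within each library. Levels of the 5 antibodies of the rule are therefore given as a description, with no test.

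CD103 is the alpha chain of an integrin that binds E-cadherin on epithelial cells, and it marks lymphocytes that reside in mucosal tissue as well as a class of dendritic cells. KLRG1 is an inhibitory receptor of differentiated effector lymphocytes and of some regulatory T cells and innate lymphoid cells, and it too binds E-cadherin. CD127 is the receptor chain for interleukin-7, on which many resting and memory T cells depend, and CD90.2 is a surface glycoprotein of T cells and innate lymphoid cells.

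The data were 9 antibody libraries of colon immune cells (EpCAM-/CD45+) from SCID mice, of a series of 64 samples whose other 55 were not analysed here. As SCID mice make no T or B lymphocytes of their own, the CD4 T cells of this model derive from the transferred cells, which the labels name CD45RBhi. All 9 libraries, the week 0 library included, carry the label CD45RBhi transfer: 8 are untreated, 1 from each of weeks 0 to 7, and 1 is a week 7 library whose mice received anti-IL-12p40, starting on day 10. Anti-IL-12p40 binds the chain that the cytokines IL-12 and IL-23 have in common. Tissue of 3 animals went into each library, and there was 1 pool per week and treatment, so the spread between pools of one kind is unknown. The animals' age and sex and the donors of the transferred cells are not given in the sources used here. Each cell was stained with 11 antibodies carrying sequence tags, and the values are counts of those tags per cell barcode.

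The number of barcodes per library was 11534 to 21229, the sum of antibody counts 12914066 to 28723452, and the median cell had 576.5 to 1566 counts. Pairs of libraries shared 30 to 110 barcodes, 5 barcodes were CD103+ CD4 T cells in 2 libraries, and leaving out every shared barcode changed no call. Intervals in parentheses are 95% binomial intervals by the exact Clopper-Pearson method and take in counting error alone. As a background, cells with CD11b and Ly-6G, as on neutrophils, were scored with the same thresholds, since these cells should lack CD103. They passed the CD103 threshold in 17.6% of cases at week 0 and 11.3% at week 1, and in 1.23% to 6.44% from week 2 on. Their median total was 1430 to 4231 counts, against 896 to 2023 in CD103+ CD4 T cells.

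The first question was when CD103+ CD4 T cells appeared in the colon. Their share of all immune cells rose over the untreated weeks, from none by the rule at week 0 to 21.2% at week 7. By the rule's thresholds 0 of 16735 cells qualified at week 0, which allows a share of up to 0.0179% on a limit of 3 counts and 0.0220% on the exact interval. Week 0 held 22 such cells (0.131%) when each library had its own thresholds, so the 0 belongs to these thresholds. Those 22 rest on a CD3 threshold fitted in a library with 1 CD4 T cell by the rule's thresholds. The CD90.2 gate described below, which does not ask for CD3, passed 49 CD103+ cells at week 0. As 0 cells met the rule, none of these 49 passed its CD3 threshold, and they are not counted as T cells here. The share at week 1 was 0.357% (0.261 to 0.477), followed by 1.84% (1.66 to 2.03) at week 2, 4.38% (4.03 to 4.75) at week 3 and 6.92% (6.55 to 7.30) at week 4. It reached 16.0% (15.4 to 16.6) at week 5, was 6.45% (6.004 to 6.91) at week 6 and 21.2% (20.4 to 21.9) at week 7. Week 6 stood below weeks 4, 5 and 7, and the other weeks followed the order of time. The rank correlation with week was 0.929 (two-sided exact permutation p = 0.00223, adjusted p = 0.0201, n = 8), and Pearson's r was 0.854 (exact p = 0.00476, adjusted p = 0.0429). With the first and the last week left out, the rank correlation was 0.829 (exact permutation p = 0.0583, n = 6) and Pearson's r was 0.730 (exact p = 0.0806). The rank correlation was 0.893 without any single one of weeks 0, 1, 2, 3 or 7, and the adjusted p was then 0.075 to 0.111, so the call rests on all of these libraries. As week 0 held 1 CD4 T cell by the rule's thresholds, its lowest place was all but set by the near lack of CD4 T cells. Without week 0 the adjusted p was 0.075 (exact permutation, n = 7).

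The share of all cells moves with the influx of CD4 T cells, which made up 4.13% of the week 1 library and 86.1% of the week 7 library, and fewer cells of another type cannot be told apart from more of these. Among CD4 T cells, the CD103+ share was 8.64% (6.37 to 11.4) at week 1, 5.32% (4.82 to 5.86) at week 2 and 7.73% (7.12 to 8.38) at week 3. The week 1 value lay below the 11.3% (7.13 to 16.7) of its neutrophil-phenotype cells, with overlapping intervals and median totals of 1063 and 2225 counts, so it was not distinguished from background. Without week 1 the rank correlation with week was 0.829 (exact permutation p = 0.0583, adjusted p = 0.175, n = 6). Week 4 had 13.8% (13.1 to 14.6), with 23.4% (22.6 to 24.3) at week 5, then 11.8% (10.97 to 12.6) at week 6 and lastly 24.6% (23.7 to 25.4) at week 7. From week 4 on the shares thus lay above those of weeks 1 to 3, with weeks 5 and 7 highest. The rank correlation with week was 0.786 (exact permutation p = 0.0480, adjusted p = 0.144, n = 7; Pearson's r = 0.774, exact p = 0.0468, adjusted p = 0.095), which did not pass. Without weeks 1 and 7 these were 0.700 (exact permutation p = 0.233, n = 5) and 0.646 (exact p = 0.267). With a gate on CD90.2 in place of CD3, chosen after the data were seen, week 6 was nearer its neighbours, at 16.0% between 25.3% at week 5 and 25.2% at week 7.

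**Figure D1:**
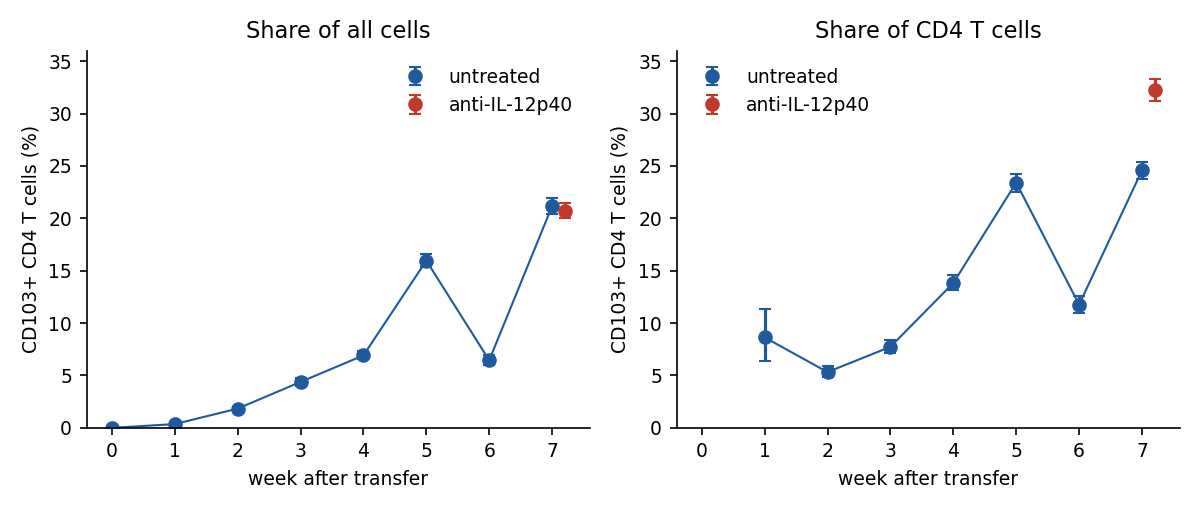
CD103+ CD4 T cells as a percentage of all cells (left) and of CD4 T cells (right, libraries with at least 50 CD4 T cells) against week. Points are single libraries with exact 95% intervals for counting error, blue for untreated and red for anti-IL-12p40 (shifted sideways); untreated shares of all cells climb from 0 to 21.2%, with a dip to 6.45% at week 6, and the treated share of CD4 T cells, 32.3%, lies above every untreated one.

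These results depend on what counts as CD103+. When a cell had to exceed the 95th percentile of CD103 counts on the neutrophil-phenotype cells of its own library, the shares of all cells at weeks 5 and 7 were 4.65% and 4.04%, below the 5.70% of week 4. The rank correlation with week was then 0.667 (exact permutation p = 0.0831, adjusted p = 0.374, n = 8), and over all 23 alternatives for this trend the adjusted p ranged from 0.00357 to 0.374. Neutrophil-phenotype cells had a median of 20 CD103 counts and 3805 counts in total at week 7, so that this bar was high there. Their medians of the T cell proteins were also high at week 7, at 31 CD3 and 141 CD4 counts, against 3 and 8 at week 2. The part of this in the bar was not tested. CD103 formed a graded distribution around the threshold: 1691 cells lay within 0.25 above it on the centred log scale and 1792 CD4 T cells within 0.25 below it, with medians at week 7 of 33 and 24 CD103 counts.

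Next, the identity of the cells was described. CD103+ CD4 T cells carried the T cell proteins at levels near those of their CD103- neighbours. Median CD3 was 34 to 65 counts in CD103+ and 36 to 70 in CD103- CD4 T cells over the libraries of weeks 1 to 7 and the treated library. Within libraries it was the lower in CD103+ cells at weeks 1 to 5, at week 7 and with treatment, and equal at week 6. The medians were 38 against 46 counts at week 1 and 56 against 57 with treatment, for instance. Median CD4 was 144 to 290 counts in CD103+ and 143 to 270 in CD103- cells. Median CD103 in the CD103+ cells was 39 counts at week 2 and 55 to 73 in the other libraries, against 1 to 7 in the CD103- cells. The myeloid proteins of the rule were low, with medians of 4 to 11 counts for CD11b and 2 to 9 for CD64. No CD103+ CD4 T cell in any library passed the threshold for Ly-6G, the neutrophil antigen, and 85.4% to 99.7% of them in each library were CD90.2+. The levels of the proteins of the rule were set in part by the selection, so they do not test the label. Ly-6G and CD90.2, which the rule did not use, did not go against the label. CD103- CD4 T cells were CD90.2+ in 86.3% to 99.9% of cases. Their share was the lower at weeks 3 and 5 and the higher in the other libraries, for instance 92.0% against 85.4% at week 4. The protein described next did go against the label in some weeks, among them week 1. There CD90.2 was still on 95.6% of CD103+ CD4 T cells.

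The early libraries were less clean. CD11c, an integrin of dendritic cells that the rule did not use, was carried by 57.8% of the 45 CD103+ CD4 T cells of week 1 and by 24.9% of those of week 2. Week 3 had 5.09%, week 4 had 11.3%, weeks 5 to 7 had 0.952% to 2.79% and the treated library had 1.82%. The CD103- CD4 T cells of the same libraries held 0.499% to 4.67% CD11c+ cells. Cells with CD11c and without CD3 and CD64, the phenotype of dendritic cells, made up 63.2% of all CD103+ cells at week 0, 31.4% at week 2 and 3.01% at week 7. CD103+ CD4 T cells were 1.54% of all CD103+ cells at week 1, 24.0% at week 2 and 89.3% at week 7, so the main bearer of CD103 in the sorted fraction differed between the ends of the time course. With CD11c+ cells left out, week 1 kept 19 CD103+ CD4 T cells and week 2 kept 289, and the CD103+ share of CD4 T cells was 3.91% and 4.24%. The rank correlation of the share of all cells with week was then 0.976 (exact permutation p = 0.000397, adjusted p = 0.00357, n = 8).

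KLRG1 comes first among the proteins the gate did not use. KLRG1+ cells were fewer among CD103+ than among CD103- CD4 T cells in 6 of the 6 untreated libraries with at least 50 CD103+ CD4 T cells. The KLRG1+ share was 23.6% (19.5 to 28.2) in CD103+ and 33.4% (32.3 to 34.6) in CD103- cells at week 2, and 7.82% (5.72 to 10.4) and 33.4% (32.3 to 34.6) at week 3. It was 4.76% (3.64 to 6.10) and 12.2% (11.5 to 13.0) at week 4, and 2.66% (2.03 to 3.42) and 9.83% (9.16 to 10.5) at week 5. It was 3.94% (2.65 to 5.61) and 9.60% (8.84 to 10.4) at week 6, and 4.28% (3.53 to 5.15) and 15.1% (14.3 to 15.9) at week 7. In none of the 6 libraries did the intervals overlap, and week 3 had the widest gap.

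The mean difference was -11.1 ± 7.34 percentage points (SD, n = 6), with an exact two-sided sign-flip permutation p of 0.0312 and an adjusted p of 0.0729. That p is the smallest that 6 libraries allow. The within-library tests numbered 7, and at least 5 of them had to reach this smallest p before any could pass the adjustment; 3 did, so 0 passed at an adjusted p of 0.05. The difference was negative under each of the 20 alternatives, between -17.5 and -7.52, with adjusted p from 0.0365 to 0.219. The smallest, -7.52, came from a setting that leaves CD103 out of the scale for the other antibodies and refits the thresholds. On the scale of the rule, a high CD103 count raises the KLRG1 count that a cell needs to be KLRG1+. Settings that keep CD103 in the scale gave -7.61 (CD103 bar set by neutrophil-phenotype cells) and -7.60 (CD90.2 gate). The part of the scale in the difference was not tested. Neutrophil-phenotype cells were KLRG1+ in 8.08% of cases at week 2, 4.38% at week 3 and 0.760% to 2.25% at weeks 4 to 7. The intervals of CD103+ cells and of this background overlapped at week 3 (7.82% against 4.38%) and week 5 (2.66% against 2.25%), and lay apart in the other 4 libraries, with CD103+ cells higher. Thinned to 200 counts per cell, which left out 0.366% to 3.80% of the cells of those libraries, the KLRG1+ share of CD103+ cells ran from 2.75% to 20.7% and that of CD103- cells from 9.25% to 30.8%. A bar of at least 50 KLRG1 counts, read with no test, gave no single sign. It was passed by 8.57% of CD103+ and 6.12% of CD103- cells at week 2, and by 3.15% and 2.08% at week 4. At week 6 the shares were 2.85% and 1.21%, and at week 7 they were 3.25% and 2.81%. CD103+ cells were the lower at week 3 (4.91% against 9.59%) and week 5 (1.35% against 2.01%). The lower share thus held at 10 or more KLRG1 counts but not in each library at 50 or more.

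**Figure D2:**
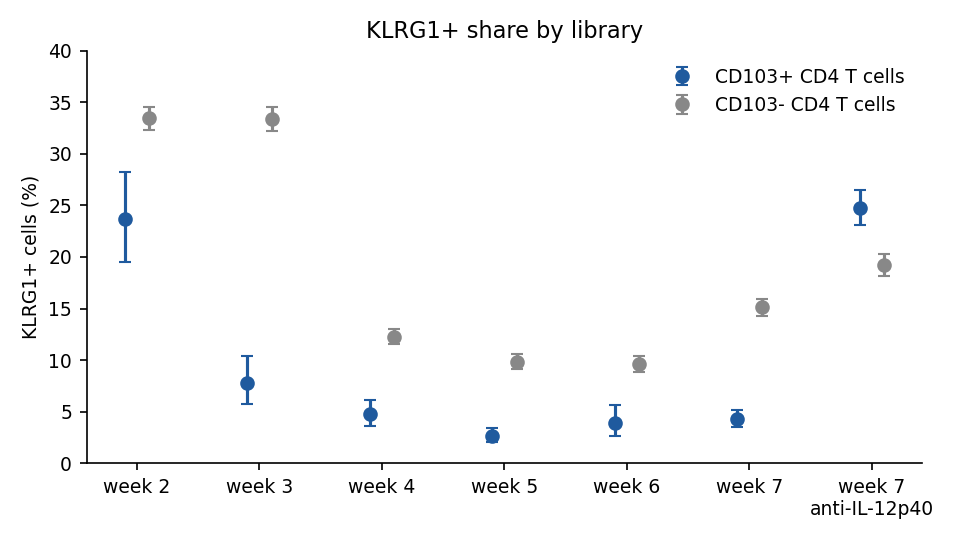
Percentage of KLRG1+ cells among CD103+ (blue) and CD103- (grey) CD4 T cells in each library with at least 50 CD103+ CD4 T cells, with exact 95% intervals for counting error. The blue point lies below the grey one in each of the 6 untreated libraries and above it in the anti-IL-12p40 library, at 24.8% against 19.2%.

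Over time, the KLRG1+ share of CD103+ CD4 T cells was highest at week 2 and lowest at week 5. Its rank correlation with week was -0.771 (exact permutation p = 0.103, adjusted p = 0.185, n = 6) and Pearson's r was -0.746 (exact p = 0.0361, adjusted p = 0.095). Without weeks 2 and 7 these were -0.800 (exact permutation p = 0.333, n = 4) and -0.808 (exact p = 0.25). With so few pools the trend did not pass.

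CD127 and CD90.2 were the other proteins that stood on one side in each of these 6 libraries. Median CD127 in CD103+ and CD103- CD4 T cells was 4 and 2 counts at week 2, 15 and 10 at week 3, and 11 and 8 at week 4. It was 13 and 9 at week 5, 10 and 8 at week 6, and 17 and 12 at week 7. CD103+ cells were higher in 6 of 6 untreated libraries, by a mean log2 ratio of (median count + 1) of 0.49 ± 0.15 (SD, n = 6; exact sign-flip permutation p = 0.0312, adjusted p = 0.0729). The counts were low, and neutrophil-phenotype cells, with their higher totals, had medians of 2 to 18 CD127 counts over these 6 libraries. CD127 counts did not fall into separable groups: the components of a mixture fitted to them lay 1.56 times their spread apart (Ashman's D), against 2.92 for KLRG1 and 2.69 for CD103.

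Median CD90.2 was 593 counts in CD103+ and 548 in CD103- CD4 T cells at week 2 and 848 and 737 at week 7. The mean log2 ratio was 0.16 ± 0.07 (SD, n = 6; higher in 6 of 6 libraries, exact permutation p = 0.0312, adjusted p = 0.0729). At week 1, with 45 CD103+ cells, CD90.2 was lower in CD103+ cells (517 against 601 counts), and with that library the mean was 0.11 (exact p = 0.141, n = 7). CD103+ cells also had more antibody counts in all, for instance a median of 1470 against 1270 at week 7 and 1068 against 955 at week 2, and the part of depth in these ratios is seen on other scales. Thinned to 200 counts over the 10 antibodies other than CD103, the log2 ratio of medians was 0.26 for CD127 (exact permutation p = 0.5, n = 6) and 0.04 for CD90.2 (exact p = 0.0625). On the centred log ratio over all 11 antibodies CD90.2 reversed, to -0.15 in natural log units. CD103 itself enters each cell's mean on that scale, which lowers every other protein of a CD103+ cell. The direction for CD90.2 therefore depends on the scale, and that for CD127 was positive on each scale tried, with adjusted p from 0.0547 to 0.700 over its 10 alternatives.

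The remaining proteins showed no difference that passed on the count scale. On the centred log ratio over 11 antibodies, which CD103 enters, KLRG1 (-0.60), Ly-6C (-0.27), CD11c (-0.16) and Ly-6G (-0.26) were lower in CD103+ cells with an adjusted p of 0.0365 each (exact permutation, n = 6), as was CD90.2. Ly-6C, an antigen of monocytes that activated T cells also carry, had medians of 104 to 244 counts in CD103+ and 102 to 252 in CD103- CD4 T cells of weeks 2 to 7, with a mean log2 ratio of -0.02 ± 0.03 (SD, n = 6; exact permutation p = 0.156, adjusted p = 0.273). The log2 ratio of median KLRG1 was -0.40 ± 0.56 (SD, n = 6; lower in 3 libraries and equal in 3; exact permutation p = 0.25, adjusted p = 0.292). Median KLRG1 was 1 or 2 counts in CD103+ cells, so the median hardly registers a protein that a minority of cells carry. CD11c had 0.12 ± 0.19 (exact permutation p = 0.25, adjusted p = 0.292, n = 6) and Ly-6G 0.07 ± 0.27 (exact p = 1, adjusted p = 1).

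**Figure D3:**
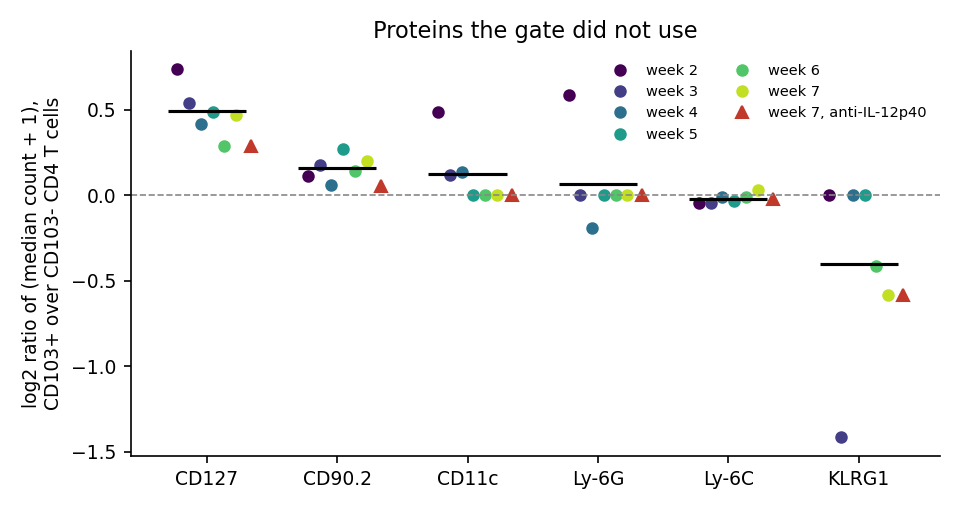
Log2 ratio of (median count + 1), CD103+ over CD103- CD4 T cells, for the 6 proteins the gate did not use. Circles are the untreated libraries of weeks 2 to 7, black bars their means, and red triangles the anti-IL-12p40 library; CD127 lies above 0 in each library, by 0.29 to 0.74 in the untreated ones, and KLRG1 lies at or below 0.

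Levels of these 6 proteins on CD103+ CD4 T cells were also followed over weeks 2 to 7, as medians of a centred log ratio over the 6 proteins alone. Ly-6C had the strongest relation with time: its median was 2.16 at week 2, then 1.96 and 1.92 at weeks 3 and 4, 1.76 and 1.88 at weeks 5 and 6, and 1.48 at week 7. The rank correlation with week was -0.943 (exact permutation p = 0.0167, adjusted p = 0.075, n = 6) and Pearson's r was -0.895 (exact p = 0.0111, adjusted p = 0.050). Without weeks 2 and 7 these were -0.800 (exact permutation p = 0.333, n = 4) and -0.607 (exact p = 0.333). As a percentage of the cell's counts, the rank correlation was -0.714 (exact p = 0.136, adjusted p = 0.306, n = 6), and the adjusted p over all 11 alternatives was 0.050 to 0.306. CD127 had 0.657 (exact permutation p = 0.175, adjusted p = 0.263, n = 6; Pearson's r = 0.794, exact p = 0.0528), with week 2 lowest and week 7 highest. The other 4 levels had rank correlations between -0.771 (CD11c) and 0.543 (CD90.2), with exact permutation p from 0.103 to 0.564. Of the 9 trends computed, 3 had an unadjusted exact p under 0.05 and 1 passed after adjustment, that of the share of all cells.

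Anti-IL-12p40 was compared with no treatment at week 7, with a single library on each side. No test was possible, and pool-to-pool spread cannot be told apart from treatment. The abundance of CD103+ CD4 T cells was much the same in both pools: 20.7% (20.0 to 21.5) of all cells with treatment and 21.2% (20.4 to 21.9) without, a ratio of 0.979 (0.932 to 1.03, a log-normal 95% interval for counting error, as for the ratios that follow). As a share of CD4 T cells they were 32.3% (31.2 to 33.3) with treatment and 24.6% (23.7 to 25.4) without, a ratio of 1.31 (1.25 to 1.37). The rule for a large difference asked for a ratio of at least 1.5, separate intervals and a treated value outside those of untreated weeks 5 to 7, and neither share met it. Both did with the bar set by neutrophil-phenotype cells, where the ratios were 2.12 and 2.84. In the treated library 75 cells set that bar, and 2.67% of them passed the usual CD103 threshold, against 4.66% at untreated week 7. Their medians were 11 CD3 and 14 CD4 counts, against 31 and 141 in those of untreated week 7. The part of this background in the ratios was not tested.

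KLRG1 differed far more than abundance. Of the CD103+ CD4 T cells, 639 of 2578 were KLRG1+ with treatment, or 24.8% (23.1 to 26.5), against 108 of 2521 without, or 4.28% (3.53 to 5.15). The ratio was 5.79 (4.75 to 7.04), which met the rule for a large difference, and untreated weeks 5 to 7 spanned 2.66% to 4.28%. Earlier in the untreated course, week 2 had 23.6% (19.5 to 28.2), which overlapped the treated interval. The week 7 ratio was 4.41 to 6.51 over 13 alternatives and met the rule in each of them. Thinned to 200 counts per cell, the shares were 26.7% and 4.998%, with 4.74% and 0.705% of cells left out. Among the CD103- CD4 T cells of the same libraries the KLRG1+ share was 19.2% (18.2 to 20.3) with treatment and 15.1% (14.3 to 15.9) without. In the treated library KLRG1+ cells were thus more frequent among CD103+ cells, by 5.56 percentage points (1.47 to 23.7 over 13 alternatives), where each of the 6 untreated libraries had them less frequent. At the bar of at least 50 KLRG1 counts the untreated libraries did not share one sign, as given above. The KLRG1+ share of neutrophil-phenotype cells was 6.67% (2.20 to 14.9; 5 of 75 cells) with treatment and 1.68% (0.900 to 2.86) without.

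The KLRG1+ CD103+ cells were then looked at by themselves, as a subset chosen after the data were seen, and so with no test. They were 7.99% (7.41 to 8.61) of CD4 T cells with treatment and 1.05% (0.865 to 1.27) at untreated week 7, and 0.463% to 1.26% at untreated weeks 2 to 6. Their median KLRG1 was above that of KLRG1+ CD103- CD4 T cells, and their median CD103 above that of KLRG1- CD103+ cells. Both follow in part from the gate, since on the scale of the rule a cell high in one of these proteins needs more counts of the other to pass, and how large that part is was not tested. Median KLRG1 in the former and the latter was 35 and 21 counts at week 2, 56 and 33 at week 3, and 65 and 22 at week 4. It was 48 and 25 at week 5, 99 and 22 at week 6, 116.5 and 23 at week 7, and 136 and 20 with treatment. The CD103- cells thus stayed between 20 and 33 counts, and the CD103+ cells exceeded them in each of the 7 libraries. The subset held 29 to 108 cells in the untreated libraries and 639 in the treated one.

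**Figure D4:**
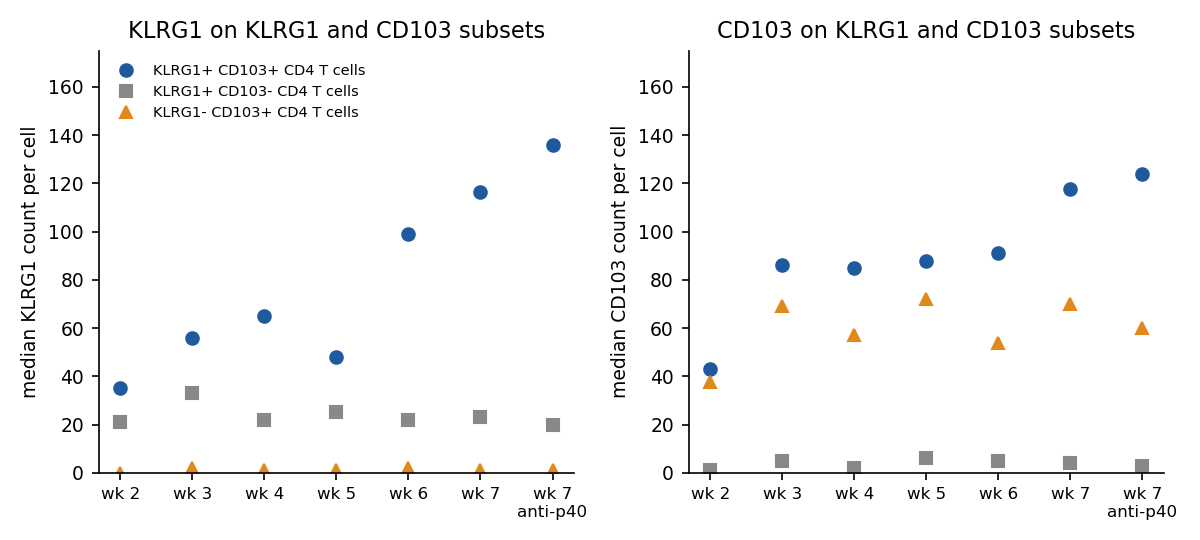
Median counts per cell of KLRG1 (left) and CD103 (right) in KLRG1+ CD103+ (blue circles), KLRG1+ CD103- (grey squares) and KLRG1- CD103+ (orange triangles) CD4 T cells of each library; anti-p40 is the anti-IL-12p40 library. KLRG1+ CD103+ cells have the most of both proteins in each of the 7 libraries, reaching 136 KLRG1 and 124 CD103 counts with treatment.

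CD103 is a protein of the rule and is given as a description. Median CD103 in KLRG1+ and KLRG1- cells was 43 and 37.5 counts at week 2, 86 and 69 at week 3, 85 and 57 at week 4, and 88 and 72 at week 5. It was 91 and 54 at week 6, 117.5 and 70 at week 7, and 124 and 60 with treatment. The median total of KLRG1+ and KLRG1- CD103+ cells was 1111 and 1061.5 counts at week 2, 1614 and 1569 at week 3, and 1138 and 878.5 at week 4. It was 1072 and 1272 at week 5, 1523 and 1624 at week 6, 1366.5 and 1478 at week 7, and 1799 and 2083 with treatment. KLRG1+ cells thus had the higher total at weeks 2 to 4 and the lower one from week 5 on and with treatment, and the part of depth was not tested. In the treated library the KLRG1+ cells had less CD90.2 than the KLRG1- cells (1157 against 1652 counts), somewhat less CD4 (153 against 184) and a like level of CD3 (61 against 54) and CD127 (10 against 11). CD90.2 and CD4 were also lower in the KLRG1+ cells at untreated week 7 (601 against 852 and 204.5 against 293). The same held among the CD103- cells of the treated library (1271 against 1536 and 151 against 179). In CD103+ cells CD90.2 was the higher in KLRG1+ cells at weeks 2 and 4, and CD4 at week 4.

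**Figure D5:**
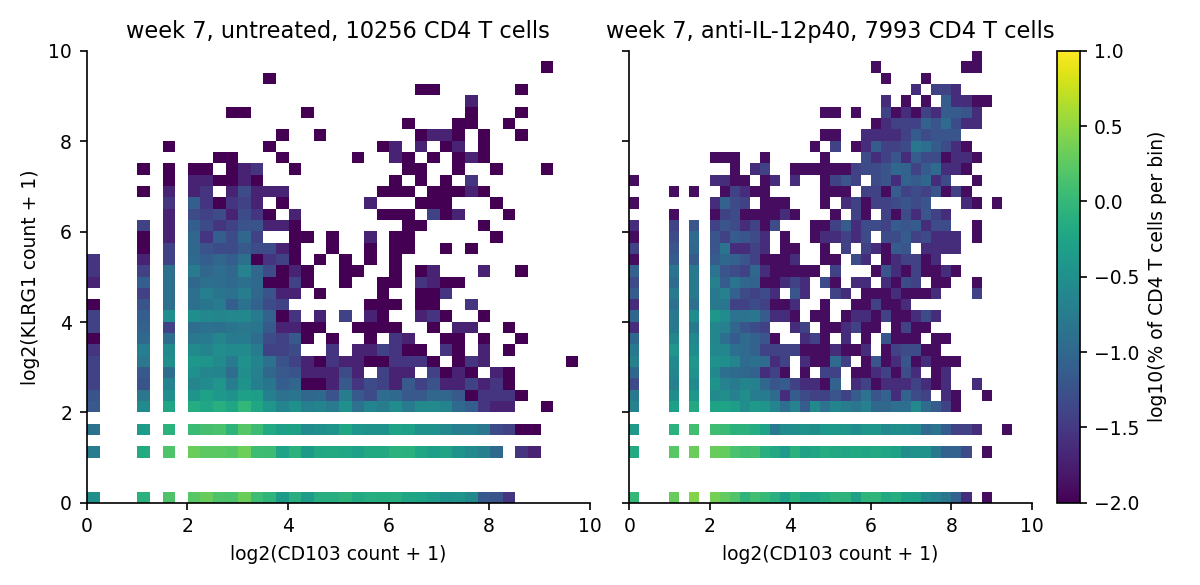
CD4 T cells of the week 7 libraries, untreated (left) and anti-IL-12p40 (right), by log2(CD103 count + 1) and log2(KLRG1 count + 1). Colour gives the log10 percentage of that library's CD4 T cells in each bin, and the bands at the lower left are counts of 0, 1 and 2; cells high for both proteins, at the upper right, are sparse at left and form a dense cloud at right.

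The joint pattern was graded at week 7. When the CD103+ CD4 T cells of the treated library were divided into 4 groups of nearly equal size by CD103 count, the KLRG1+ share was 6.91%, 14.8%, 29.4% and 48.2% from the lowest group to the highest. At untreated week 7 it was 0.759%, 3.14%, 4.75% and 8.64%. The share was higher in each next group in both libraries, and so were median totals, from 1378 to 2715 counts with treatment and from 1032 to 2054 without. It also rose in each next group at week 6, from 1.07% to 9.29%. At weeks 2, 3 and 5 the highest group was below the one before it (24.2% against 31.0%, 9.02% against 9.56%, and 3.28% against 3.45%). At week 4 the middle groups had 4.90% and 4.84%, between 0.317% and 9.09%. The parts of depth and of the gate in these shares were not tested. At week 7 the stricter bar of at least 50 KLRG1 counts was passed by 20.6% (19.0 to 22.2) of CD103+ cells with treatment and 3.25% (2.60 to 4.02) without. Among CD103- CD4 T cells it was passed by 3.23% (2.78 to 3.74) and 2.81% (2.45 to 3.20), and there the intervals of the 2 libraries overlapped.

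Innate lymphoid cells also carry KLRG1, and cells of their phenotype were far more frequent in the treated library. Cells with CD90.2 and without CD3, CD4, CD11b, CD11c and CD64 were 15.0% of all cells with treatment and 0.831% without at week 7, and of these 53.8% and 28.3% were KLRG1+. The KLRG1+ ones had a median of 63 KLRG1 counts with treatment, against 136 in the KLRG1+ CD103+ CD4 T cells of that library. Their levels of CD3 and CD4 were fixed by the gates and are not compared. At weeks 2 and 3 such innate lymphoid-phenotype cells were 14.1% and 7.84% of all cells, and the KLRG1+ share of CD103+ CD4 T cells there was 23.6% and 7.82%. At week 1 the former were 38.6% of all cells, while 3 of the 45 CD103+ CD4 T cells (6.67%) were KLRG1+. At untreated weeks 4 to 7 they were 0.831% to 1.88%, with a KLRG1+ share of CD103+ CD4 T cells of 2.66% to 4.76%. Droplets holding 2 cells were not removed beyond the highest totals, and their part in these shares was not tested.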

How the data were processed

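The deposited tables hold whole-number counts of 11 antibodies per cell barcode, not normalized, in 9 libraries. Per the labels' protocols, lamina propria cells were stained, sorted and about 16000 per sample loaded on a droplet instrument. Cell Ranger 6.0.2 and Seurat 4.1.1 are listed in the submitters' processing notes without a role. The sources used here do not say how barcodes were selected. Barcodes with fewer than 50 counts or above the 99th percentile of their library's total were left out, which kept 130442 of 131917. No doublet caller was run, since antibody counts alone lack its usual input.

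Counts were put on a centred log scale: 1 was added, natural logs were taken, and the mean of a cell's 11 values was subtracted from each. Thresholds were -0.155 for CD3, 0.652 for CD4, 0.149 for CD103, 0.712 for CD11b and 0.105 for CD64. A 2-component Gaussian mixture refitted on 2000 cells per library gave the same values after rounding, and gave the threshold -0.589 for KLRG1. The cells, lists and tests were chosen with earlier results of these data known. The rule for naming proteins was that all 11 antibodies are named, the 5 of the gate with no test and the other 6 whatever their result.

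The library was the unit of each test. Trends used Spearman's and Pearson's correlation with exact permutation p-values over all orderings, and differences within a library used exact sign-flip permutation, both two-sided, with Benjamini-Hochberg adjustment over 9 trends and 7 differences. Libraries under 50 cells of the kind compared were left out. With 1 pool per week, a p-value measures how unusual an ordering of pools is. The permutation tests and the CD103 threshold were tried on simulated data. For the threshold, cells were drawn from groups already split by it, so this was a weak check. The other gates and the KLRG1 threshold were not simulated. Alternatives were other scales, thinning, thresholds, filters and gates, and leaving out each library. A CD90.2 gate, KLRG1 at 10 or more counts, libraries with at least 40 CD103+ CD4 T cells, leaving out shared barcodes, and the descriptions of KLRG1+ subsets, groups by CD103 count and innate lymphoid-phenotype cells were added after seeing the data. Mixtures were fitted with scikit-learn 1.9.0 and tests run with scipy 1.17.1 and numpy 2.4.6, tables were handled with pandas 2.3.3 under Python 3.11.15, and figures drawn with matplotlib 3.10.9.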

Additional observations from a re-analysis of the deposited data

Results flagged for a closer look

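At the KLRG1 threshold used, the difference in KLRG1+ share between CD103+ and CD103- CD4 T cells had opposite signs with and without treatment. It was 5.56 percentage points in the anti-IL-12p40 library (1.47 to 23.7 over 13 alternatives) and between -25.6 and -5.66 in the 6 untreated libraries, so every untreated library lay on one side of 0 and the treated library on the other. At 50 or more KLRG1 counts the untreated libraries did not share one sign. CD103+ cells were higher at week 7, for instance (3.25% against 2.81%), and lower at week 3 (4.91% against 9.59%). With treatment the shares at that bar were 20.6% and 3.23%. The difference between treated and untreated was not tested, since there was 1 treated pool.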

How the results depend on the processing

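Counted over results and alternatives, 116 values for the shares, trends and ratios stayed on their side of the threshold or within their error, 16 moved, 3 became calls and 6 lost the call. For single proteins, 117 stayed, 7 reversed and 2 became calls. The cause of each was not tested, except where a scale's construction is named.

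With the CD103 bar set by neutrophil-phenotype cells, the trend of the share of all cells was 0.667, the untreated KLRG1 difference -7.61 (now a call) and that with treatment 23.7, and the week 7 ratios were 2.12 for the share of all cells, 2.84 for that of CD4 T cells and 4.65 for KLRG1. Thresholds fitted in each library gave 0.952 for the trend of the share of CD4 T cells (a call) and ratios of 0.901 and 1.21. In another setting CD103 was scaled by each cell's total to the median total of its library. The other antibodies were put on a scale without CD103, and the thresholds were refitted. That setting gave ratios of 0.830 and 1.11 and a treated KLRG1 difference of 12.1. Raising the CD103 threshold by 0.5 gave 1.05, 1.41 and 11.2. Lowering it by 0.5 gave KLRG1 differences of -11.3 untreated (a call, with 7 libraries) and 1.47 with treatment. Thinning gave a treated difference of 10.8, and KLRG1+ at 10 or more counts gave 8.22 and a ratio of 4.41.

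Leaving out each library in turn gave 0.893 to 1.00 for the trend of the share of all cells, 0.657 to 0.829 for the share of CD4 T cells, -0.900 to -0.600 for the KLRG1+ share and -12.2 to -8.19 for the KLRG1 difference. Without week 2, the trend of the KLRG1 level reversed to 0.2 and the Ly-6G ratio to -0.0385, from 0.117 at most without another library. The Ly-6G difference was also -0.0385 on the ratio over 6 antibodies and -0.19 when thinned. On the ratio over 11 antibodies, which CD103 enters, CD90.2 reversed to -0.15, CD11c to -0.16 and Ly-6G to -0.26, and KLRG1 (-0.60) and Ly-6C (-0.27) became calls; the adjusted p of these 5 was 0.0365 (exact permutation). Libraries of different groups could not be paired, because each group holds 1 sample. The differences between CD103+ and CD103- cells were paired within each library. Median KLRG1 of 1 or 2 counts limits what its median can show.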
